A study of Homo sapiens with 52 samples.

Results

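The type I interferon genes, the CXC and CC chemokine genes and a group of chemokine receptor genes lie in clusters on chromosomes 9, 4, 17 and 3. Their contact with the nuclear lamina was described in 51 single cells. They came from clone 14 of KBM7, a human cell line that was established from a chronic myeloid leukaemia, and had a ploidy of 2N. All of them carried Dam fused to Lamin B1, a protein of the nuclear lamina, and formed 1 group without a control group. Dam is a bacterial enzyme that methylates adenine in the sequence GATC, so DNA near the lamina becomes marked in living cells (DamID). The fusion protein was stabilised by Shield1 at 0.5 nM over 15 h, and single cells were sorted from those with both Fucci cell cycle markers, taking the 2% smallest. The line is 1 clone, and since the labels name no separate cultures, all cells were treated as 1 sample. No p-value is given, and each SD is the spread over cells. With a ploidy of 2N the copies of a chromosome share 1 value and cannot be told apart.

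The members were bins of 100 kb chosen by position on hg19. They are the bins over 6 intervals and those within 2 Mb on each side. The type I interferon interval runs from 21000001 to 21500000 on the chromosome 9 part of the joined sequence 9:22 of the deposited table. The large CXC interval runs from 74500001 to 75000000 on chromosome 4 and the small CXC interval from 76900001 to 77000000 on the same chromosome. The first CC interval runs from 32500001 to 32700000 on chromosome 17 and the second CC interval from 34200001 to 34600000. The receptor interval runs from 45800001 to 46500000 on chromosome 3. There were 218 member bins of 30376 in all, 24 of them inside the intervals, and 216 had a value (23 inside). The value is the ratio of observed to expected signal (OE), and a bin with an OE of 1 or more in a cell was taken as contacted there. Contact frequency is the share of the 51 cells in which a bin was contacted.

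Type I interferons are secreted proteins that put cells into an antiviral state. Their genes have no introns and are thought to have multiplied by repeated duplication. Chemokines are small secreted proteins that direct the movement of white blood cells through receptors of the G protein-coupled family. Most ligands of the CXC and CC classes are likewise encoded in clusters of related genes, and many are silent until infection or inflammation induces them. Regions that lie against the lamina (lamina-associated domains) are mostly poor in genes and low in transcription. Transcription was not measured here.

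The intervals hold 16 interferon genes, 28 chemokine genes and 8 receptor genes by the RefSeq gene table. The table is on GRCh38.p14, so it was used for names, chromosomes and gene order. The hg19 bin of each gene was set by hand to 100 kb, and all 64 cluster genes and neighbours had the chromosome of the table, with 0 pairs out of order.

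Promoters of 5 members are shown because their genes stand for the contact levels described next, from often contacted (CXCL1) to never contacted (IFNB1, CXCL10, CCL7). They are the 250 bases before the start of each gene on its own strand, from RefSeq on GRCh38.p14, and lie at chr4:73869143-73869392 (plus strand) for CXCL1, chr4:74099196-74099445 (minus) for CXCL2, chr4:76023498-76023747 (minus) for CXCL10, chr9:21077943-21078192 (minus) for IFNB1 and chr17:34269971-34270220 (plus) for CCL7. These positions are on another build than the hg19 bins and are not comparable with them. Capitals mark GATC, the letters that Dam methylates, GGG and TTCC with any 3 bases between them, a form of the NF-kB motif, and GAAA and GAAA with any 2 bases between them, a form of the motif of interferon regulatory factors. Each was searched on both strands, and overlapping matches were counted separately.
CXCL1: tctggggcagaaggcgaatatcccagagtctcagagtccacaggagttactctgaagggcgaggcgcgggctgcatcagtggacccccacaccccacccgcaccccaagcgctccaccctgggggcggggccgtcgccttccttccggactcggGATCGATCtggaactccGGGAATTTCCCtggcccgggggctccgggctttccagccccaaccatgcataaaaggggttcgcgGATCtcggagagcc
CXCL2: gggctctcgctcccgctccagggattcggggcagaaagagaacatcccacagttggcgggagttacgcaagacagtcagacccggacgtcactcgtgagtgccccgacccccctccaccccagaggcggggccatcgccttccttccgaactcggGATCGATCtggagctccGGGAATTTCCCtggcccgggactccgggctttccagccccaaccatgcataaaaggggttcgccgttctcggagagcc
CXCL10: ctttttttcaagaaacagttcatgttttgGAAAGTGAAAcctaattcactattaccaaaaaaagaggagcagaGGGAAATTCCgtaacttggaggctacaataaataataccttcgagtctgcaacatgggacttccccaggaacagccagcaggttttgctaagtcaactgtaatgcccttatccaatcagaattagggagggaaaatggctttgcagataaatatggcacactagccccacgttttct
IFNB1: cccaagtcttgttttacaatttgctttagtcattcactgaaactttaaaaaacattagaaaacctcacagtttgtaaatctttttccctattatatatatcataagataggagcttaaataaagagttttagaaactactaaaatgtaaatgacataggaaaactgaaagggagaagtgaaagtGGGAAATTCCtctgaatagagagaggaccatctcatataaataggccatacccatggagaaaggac
CCL7: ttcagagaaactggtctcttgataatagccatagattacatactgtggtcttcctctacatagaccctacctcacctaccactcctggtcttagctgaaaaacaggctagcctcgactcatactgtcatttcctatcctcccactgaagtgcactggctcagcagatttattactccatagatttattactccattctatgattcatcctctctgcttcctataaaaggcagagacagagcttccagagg
The promoters of CXCL1 and CXCL2 shared 70.1% of 281 aligned positions, and each has neighbouring GATC letters followed by the same NF-kB type match. GATC was present 3 times before CXCL1 and 2 times before CXCL2. It was absent from the shown bases of IFNB1, CXCL10 and CCL7. Over the 40 member genes with a promoter in the table, 32.5% held GATC in these 250 bases, against 35.8% of 35116 promoters. The NF-kB type letters were present in 25.0% of members (10 of 40) and 5.67% of all promoters. The interferon regulatory factor type letters were present in 12.5% (5 of 40) and 3.02%. Among the 10 are CXCL6, CXCL1, CXCL5, CXCL3 and CXCL2, related genes of the large CXC cluster, so the members are not independent. DamID was summarised over 100 kb, so these letters do not describe binding or contact at a promoter.

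Depth is given as reads recovered from the ratios. A cell yielded 50978 (cell 9) to 316463 reads (cell 26), with a median of 142540. An OE of 1 in a bin of median expected number, 316, meant 2.12 reads in cell 9 and 13.2 in cell 26. The contact share of all 26584 measured bins was 31.5% ± 3.56 (SD, n = 51).

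Across the 6 clusters contact was rare, with the large CXC cluster as the exception. Of the 23 measured bins inside the clusters 14 were contacted in no cell, which is 60.9% against 38.7% of all measured bins. None reached contact in at least 80% of cells, against 20.9% of all measured bins. Contact in more than 20% and under 80% of cells was present in 3 of the 23, against 22.1% of all measured bins, and all 3 lay in the large CXC cluster. Among the 193 measured flanking bins 118 (61.1%) were contacted in no cell and 11 (5.70%) in at least 80%. The share without contact was thus nearly the same inside the clusters and beside them. Of these 11 bins 10 lay beyond the interferon cluster and 1 beside the large CXC cluster.

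**Figure D1:**
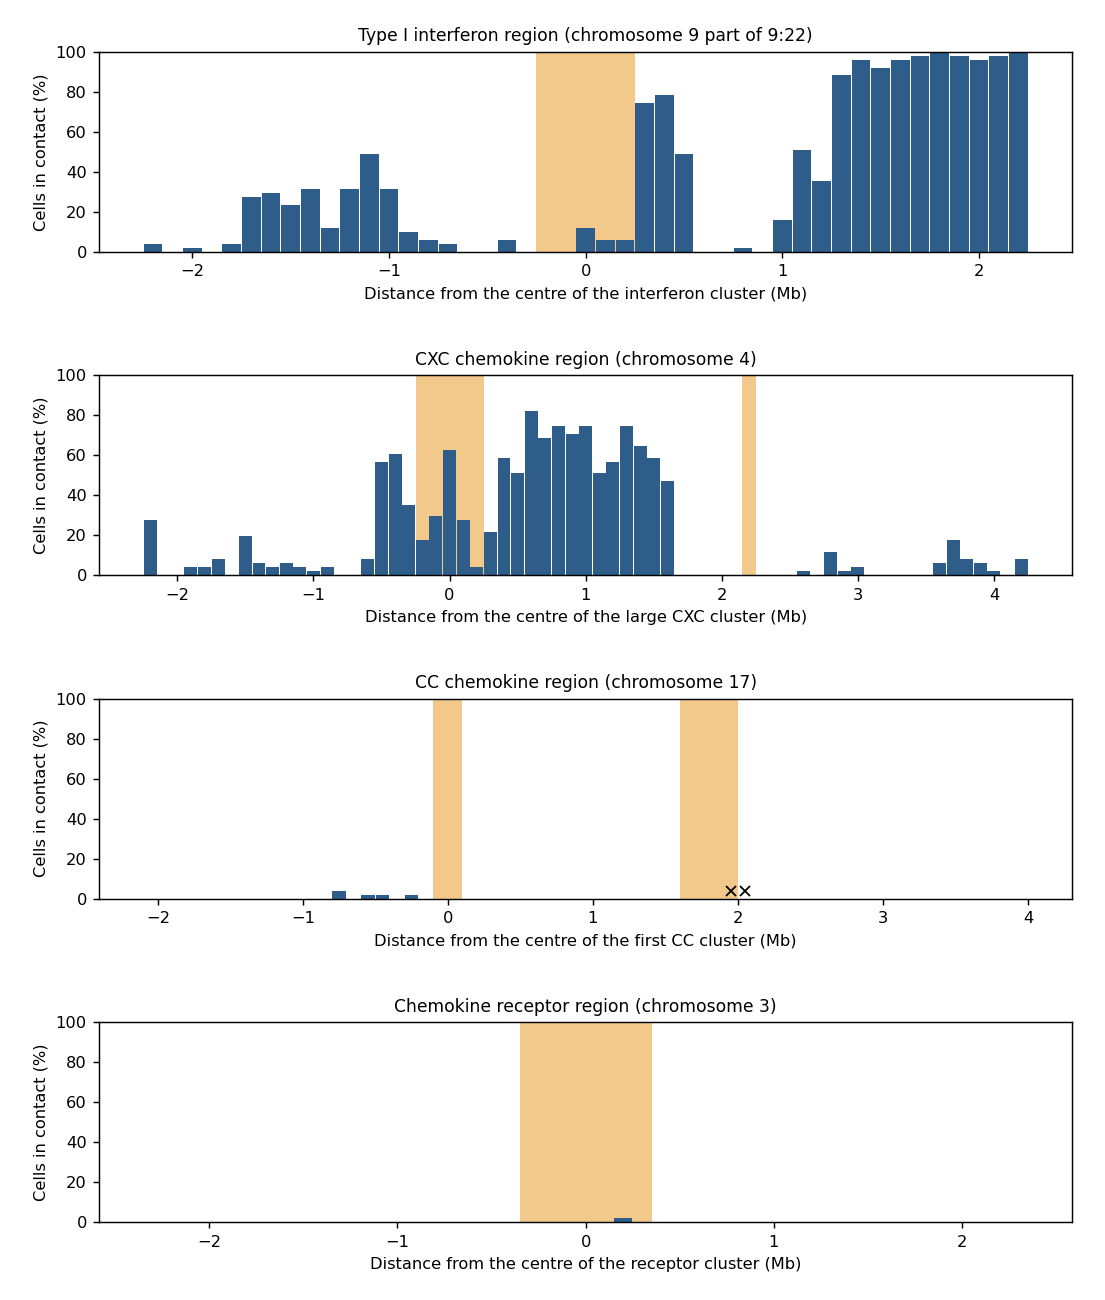
Contact frequency of every member bin (bars, percent of 51 cells) by distance in Mb from the centre of a cluster in each of the 4 regions. Shaded spans are the clusters, crosses mark the 2 bins without a value, and measured bins without a bar were contacted in no cell. The interferon cluster lies in a valley, the large CXC cluster has a peak in its middle bin, and the regions of chromosomes 17 and 3 are nearly empty.

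The type I interferon cluster had little contact and lay between contacted stretches. Its 5 bins were contacted in 4.71% ± 11.7 (SD, n = 51) of cases, with a lowest share of 0%, a median of 0% and a highest of 60.0% in cell 46. No contact was called in 42 cells, part of the cluster was contacted in 9 and the whole in none. Of the windows of the same size over the genome 40.2% had a share as low or lower. The share of the cluster was 12.5% with the threshold lowered to 0.5, 2.35% with it raised to 2, and 14.0% with the interval widened by 1 bin on each side. The flanking bins were contacted in 38.5% ± 11.3, the left side in 13.5% ± 15.8 and the right side in 63.4% ± 10.8. The cluster differed from its flanks by -33.8 percentage points ± 10.9, and was lower in 50 of 51 cells. The flanks include the domain from 22500001 to 23500000, where no cell had a share under 70.0%. This count of cells was therefore nearly fixed in advance. With flanks of 1 Mb, which end before the domain that starts at 22500001, the difference was -17.5 points ± 13.7. The whole of 9:22 stood at 27.7% ± 4.97.

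Contact differed along the interferon cluster. The bin of IFNB1, the gene of interferon beta, had OE values from 0 to 0.254 and a median of 0, and 4 cells had a read there. It was contacted in 0 of 51 cells, and a count of 0 allows a share of up to 5.88% of cells. The next bin, with IFNW1 (interferon omega), IFNA21 and IFNA4, ranged from 0 to 0.319 and was also contacted in no cell. The measured OE of both bins was thus far below 1 in all 51 cells. In the shallowest cell, however, an OE of 1 meant only 2.09 reads in the first bin and 1.70 in the second. A value of 0 there is a weak measure. The middle bin, with IFNA7, IFNA10, IFNA16, IFNA17 and IFNA14, ranged from 0 to 4.03 with a median of 0. It was contacted in 6 cells, 11.8% (95% Wilson interval 5.51% to 23.4%). Its expected number of 187 was the lowest of the cluster, whose other bins had 253 to 315, and near-identical gene copies lie in it. The handling of reads that map to several copies is not given in the sources used here.

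Farther right, the bin of IFNA5, KLHL9, IFNA6, IFNA13 and IFNA2 ranged from 0 to 2.13 and was contacted in 3 cells. KLHL9, an adaptor of a ubiquitin ligase, is the only gene of another family that RefSeq lists as protein-coding between the interferon genes. The last bin, with IFNA8, IFNA1 and IFNE (interferon epsilon, known from the female reproductive tract), ranged from 0 to 2.24 with a median of 0.170 and was contacted in 3 cells. After all cells were thinned to the lowest depth the 5 bins were contacted in 0, 1, 5, 5 and 5 cells, against 0, 0, 6, 3 and 3. All 12 single contacts in the cluster came from 9 cells, and cell 46 had 3 of them.

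The right border of the interferon cluster was the steepest step among the 211 pairs of neighbouring member bins. Contact frequency went from 3 cells in the last bin of the cluster to 38 of 51 in the bin from 21500001 to 21600000. Mean OE went from 0.332 to 2.03. In 35 cells the right bin was contacted and the left was not, in 3 both were, in 13 neither was, and in 0 the left bin alone. Among all 26445 pairs of neighbouring measured bins 1.97% differed by at least 50 percentage points. Of the member pairs 2 did, and both lay in this region. The step was present in odd-numbered cells (2 against 21 of 25), in even-numbered cells (1 against 17 of 26) and after thinning (5 against 34 of 51). It was picked from these same cells, so the subsets describe it and are not separate support.

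Beyond that border lay a narrow peak, a valley and a constant domain, whose limits were drawn after the values were seen. The 3 bins of the peak, from 21500001 to 21800000, had a contact share of 67.3% ± 39.2 (SD, n = 51). It was fully contacted in 25 cells, partly in 16 and not at all in 10, so its state differed widely from cell to cell. Runs of contact through its middle bin had a median length of 0.3 Mb and reached at most 0.6 Mb. The valley from 21800001 to 22300000, where MTAP (an enzyme of methionine salvage) lies, had a share of 3.53% ± 8.68. The domain from 22500001 to 23500000 had a share of 96.3% ± 6.92, with all 10 bins contacted in 37 cells and no cell under 70.0%. Its bins were contacted in 45 to 51 cells and had a mean OE of 3.13. The other step of at least 50 points was its border, from 18 to 45 cells.

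To the left of the interferon cluster a weaker peak of 8 bins, from 19500001 to 20300000, had a share of 29.4% ± 30.6. The bins between this peak and the cluster, including that of the neighbour HACD4, a fatty acid elongation enzyme, were contacted in 3.64% ± 12.1. Cell 17 stood out, with 70.0% of its left flank and 40.0% of the cluster contacted, as did cell 41 with 55.0% and 20.0%. These cells were named after their values were seen. Cell 17 had 192124 reads, and cell 41 had the median 142540. As a background level, the bins with contact in 5% of cells or fewer held 3.84% of the reads of cell 17, 3.05% of those of cell 41 and 3.52% of those of cell 46. All 3 were above the median of 1.72%, within a range of 0.624% to 4.98%, and the part of background in their contacts was not tested. Without the 5 cells of highest background, which leaves these 3 in, the interferon cluster stood at 4.78%.

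Low values in these bins rest on few reads, and a bin without DNA would look like a bin without contact. The 10 member bins of 9:22 with contact in no cell held 5 to 31 reads over all cells, with a median of 14. Over the genome such bins held a median of 3 reads, and 19.3% of them held none, so each of these 10 bins held more reads than the median of its class. Member bins without contact held a median of 12 reads on chromosome 4, 2 on chromosome 17 and 1.5 on chromosome 3. Those of chromosomes 17 and 3 were thus below the genome median. Copy number was not tested.

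**Figure D2:**
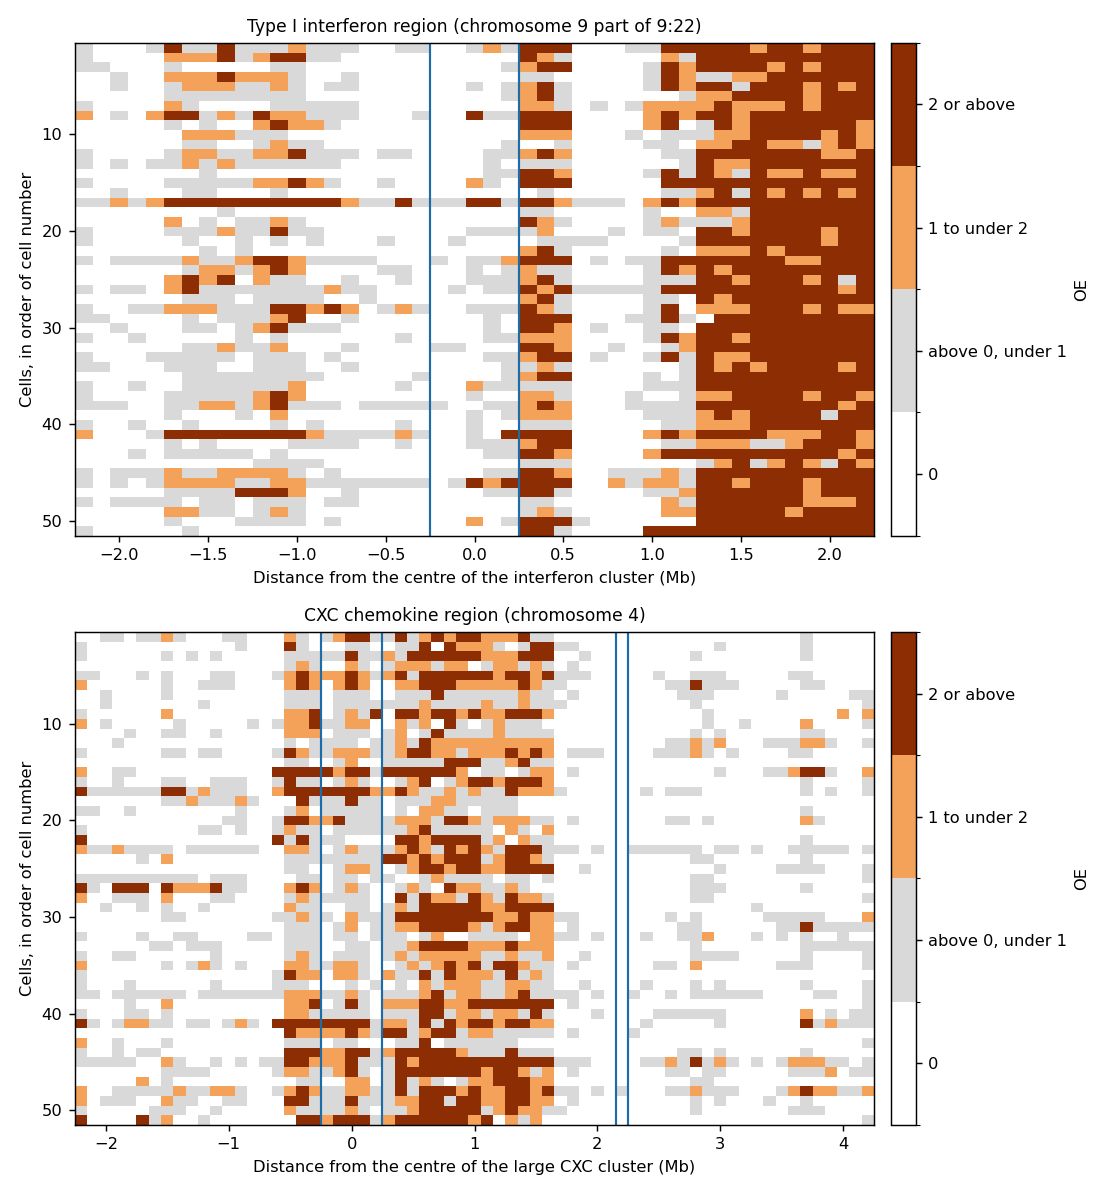
OE of every member bin of chromosomes 9:22 (top) and 4 (bottom) in each of the 51 cells, in rows by cell number, against distance in Mb from the cluster centre. Blue lines bound the clusters. Contact beyond the right border of the interferon cluster is present in most rows, while contact within and beside the large CXC cluster changes from row to row.

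The large CXC cluster was the most contacted of the 6, and its contact varied most between cells. It encodes ligands that draw neutrophils through CXCR1 and CXCR2, and the platelet proteins PF4 and PPBP. Its 5 bins were contacted in 28.2% ± 28.9 (SD, n = 51), with a lowest share of 0%, a median of 20.0% and a highest of 100% in cell 17. No contact was called in 18 cells, part of the cluster was contacted in 32 and the whole in 1. The flanks were contacted in 28.3% ± 12.3, and the difference of -0.0704 points ± 24.0 was smaller than the spread between cells. The cluster was higher than its flanks in 20 cells and lower in 31. The sides were unlike, with 12.5% ± 12.3 on the left and 45.0% ± 19.8 on the right, and all of chromosome 4 stood at 43.6% ± 4.94. The cluster stood at 46.3% with the threshold lowered to 0.5 and at 11.4% with it raised to 2. Its difference from flanks of 1 Mb was -11.1 points ± 22.5, while the threshold of 0.5 gave 6.91 points ± 27.8.

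**Figure D3:**
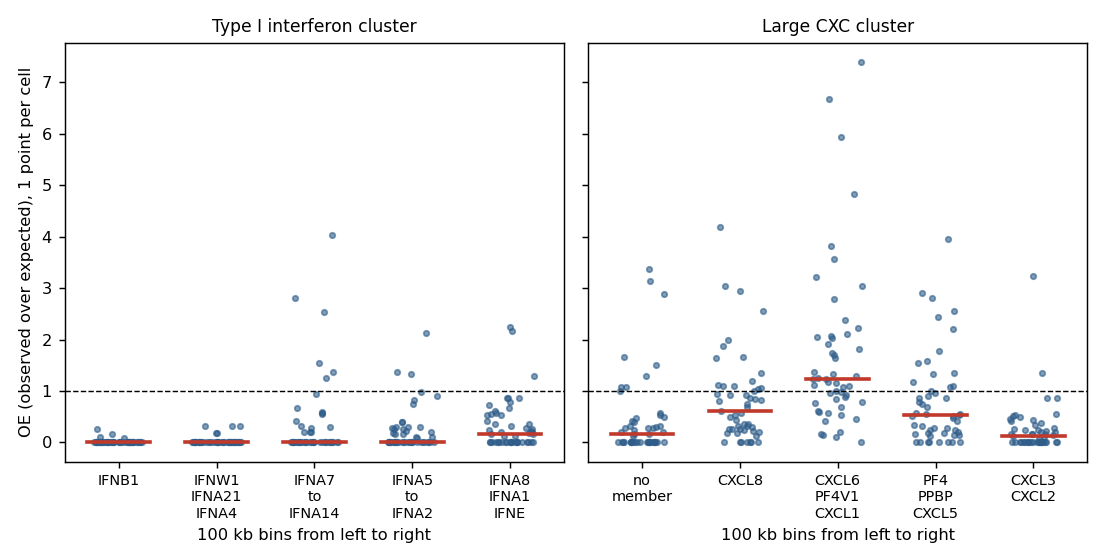
OE in each of the 51 cells (points) for the 5 bins of the interferon cluster and the 5 bins of the large CXC cluster, with the median as a red line and the contact threshold of 1 as a dashed line. The bin of CXCL6, PF4V1 and CXCL1 has its median above 1, and the bin of CXCL3 and CXCL2 has 2 cells above 1.

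Contact peaked in the middle of this cluster. The bin of CXCL6, PF4V1 and CXCL1 had OE values from 0 to 7.40 (cell 41) with a median of 1.23. It was contacted in 32 cells, 62.7% (95% Wilson interval 49.0% to 74.7%), and 1 cell had no read in it. CXCL1 and CXCL6 are neutrophil attractants, and PF4V1 is a variant of platelet factor 4. The bin to its left, with CXCL8 (interleukin 8, the best known neutrophil attractant), ranged from 0 to 4.18 with a median of 0.611 and was contacted in 15 cells. The bin to its right, with PF4, PPBP and CXCL5, ranged from 0 to 3.96 with a median of 0.534 and was contacted in 14 cells. The first bin holds no chemokine gene and was contacted in 9 cells.

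The bin of CXCL3 and CXCL2, at the other end, ranged from 0 to 3.24 (cell 9) with a median of 0.132. It was contacted in 2 cells, 3.92% (95% Wilson interval 1.08% to 13.2%). CXCL1 and CXCL2, whose promoters are printed above, thus lay in bins contacted in 32 and 2 of the same 51 cells. The OE of the CXCL1 bin was higher in 47 cells, lower in 3 and equal in 1. In 30 cells the CXCL1 bin was contacted without the CXCL2 bin, and in 0 cells the reverse. The bins had similar expected numbers, 344 and 322. In odd-numbered cells they were contacted in 17 and 2 of 25, in even-numbered cells in 15 and 0 of 26, and after thinning in 26 and 3 of 51. These are subsets of the same cells and not separate support. The contacts of the CXCL2 bin came from cells 9 and 17, and cell 9 was the shallowest.

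Over the 5 bins of the large CXC cluster, 10 arrangements of contact were present among the cells, the empty one included. In 13 cells only the middle bin was contacted, in 6 cells the first 4 bins were, and in 4 cells the middle bin and the bin to its right. Contact of the right neighbour without the middle bin was present in 0 cells, and of the left neighbour without it in 1 cell. In 14 of the 32 cells with contact in the middle bin the run was 1 bin long. The median run through this bin was 0.2 Mb, and the longest, 1.2 Mb, was the only one of at least 1 Mb.

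Both sides of the large CXC cluster held contacted stretches, with limits drawn after the values were seen. On the left, a peak from 74200001 to 74500000, whose last bin holds the neighbour RASSF6, had a share of 51.0% ± 40.7 over 3 bins. The step into it, from 4 to 29 cells, was 49.0 points. On the right, the domain from 75100001 to 76400000 began within MTHFD2L, an enzyme of folate metabolism, and had a share of 64.1% ± 28.3 over 13 bins. Every cell had some contact in it, with a lowest share of 7.69%, and 4 cells were contacted over its whole length. Its most contacted bin, from 75300001 to 75400000, reached 42 cells and was the only member bin of chromosome 4 at 80% or above. Between this domain and the cluster, the bin from 75000001 to 75100000 was contacted in 11 cells.

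Over the cells, the contact share of the large CXC cluster varied more with the left peak than with the right domain. For its middle bin this contrast was smaller. The share of the cluster had a Pearson's r of 0.633 with the left peak (Spearman's rho 0.632, r = 0.605 without the 2 cells farthest from the median). With the right domain r was 0.328 (rho 0.352, r = 0.332 without the 2 farthest). The left peak and the right domain had an r of 0.191 with each other (rho 0.161, r = 0.149 without the 2 farthest). With the interferon cluster, on another chromosome, r was 0.332, near that with the right domain (rho 0.319, r = 0.245 without the 2 farthest). With reads per cell r was -0.0916 (rho -0.112, r = -0.0695 without the 2 farthest). The middle bin alone had an r of 0.471 with the left peak (rho 0.466, r = 0.450 without the 2 farthest). With the right domain its r was 0.416 (rho 0.397, r = 0.386 without the 2 farthest). The left peak has 3 bins and borders the cluster directly, while the right domain has 13 and does not border it. These values describe 51 cells of 1 sample, taken from 55 pairs of 11 stretches. The stretches of a cell share its library and depth, and neighbouring bins are not independent.

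**Figure D4:**
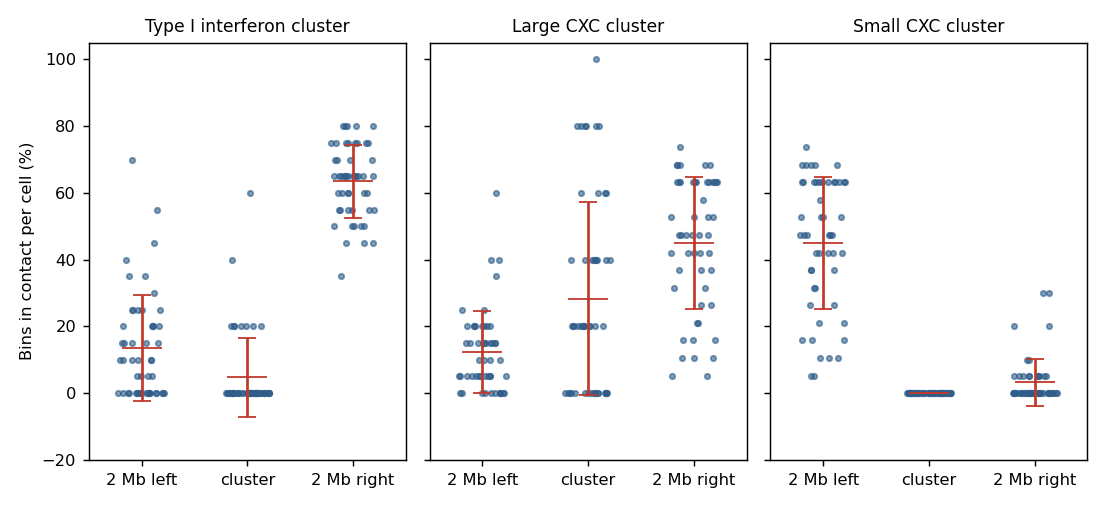
Share of contacted bins per cell (points, percent, 51 cells) in the 2 Mb left of a cluster, the cluster and the 2 Mb right of it, with the mean and SD over cells in red (the lower end of an SD bar can fall below 0). The interferon cluster has a lower mean than either side, but it was not below its left side in every cell. The large CXC cluster spreads from 0% to 100%, and the small CXC cluster is at 0% in every cell.

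The small CXC cluster was contacted in no cell, as were 38.7% of all measured bins. It encodes CXCL9, CXCL10 and CXCL11, the ligands of CXCR3 that interferon gamma induces in many cell types. Its bin held 1 read over all 51 cells, in cell 49, with an OE of 0.0815. At an expected number of 308 an OE of 1 needed 2.07 to 12.9 reads. Here too the count of 0 allows a share of up to 5.88%. The flanks were contacted in 23.6% ± 11.4 (SD, n = 51), and the cluster was lower in all 51 cells, by a mean of -23.6 points ± 11.4. With the cluster at 0% throughout, this count of cells was fixed in advance. The left flank includes the domain from 75100001 to 76400000, in which every cell had some contact. The left side stood at 45.0% ± 19.8 and the right side at 3.33% ± 7.05, with no contact on the right in 35 cells. At an OE of at least 2 the difference was -11.5 points ± 8.72.

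The small CXC cluster lay inside a stretch of 0.9 Mb, from 76400001 to 77300000, in which 9 bins were contacted in no cell. This stretch holds the neighbours SDAD1, ART3 and NUP54, a protein of the nuclear pore. Its left border, toward the large CXC cluster, was a step of -47.1 points, from 24 cells to 0. The intervals of the CXC clusters are 1.9 Mb apart on chromosome 4. Because the small cluster was contacted in no cell, its contact could not be compared with that of the large cluster cell by cell. CXCL13, the B cell attractant, lies farther right within the flank. Its bins were contacted in 9 and 4 cells.

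The CC chemokine clusters of chromosome 17 were not contacted in any cell. Of windows of 2 bins over the genome, the length of the first interval, 33.5% were also without contact. For windows of 4 bins, the length of the second, this was 27.8%. In the first cluster, the bin of CCL2 and CCL7, which attract monocytes, ranged from 0 to 0.414 with a median of 0. The bin of CCL11 (eotaxin), CCL8, CCL13 and CCL1 ranged from 0 to 0.849 with a median of 0, and 9 cells had a read in it. The highest value, in cell 27, came closest to the threshold. With the threshold lowered to 0.5 the cluster stood at 1.96% ± 9.80 (SD, n = 51), and after thinning to the lowest depth at 0.980%. The flanks were contacted in 0.280% ± 1.31, the whole of it on the left side, from cells 4, 12 and 33.

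In the second CC cluster 3 of 4 bins had a value. The bin of CCL16, CCL14, CCL15, CCL23 and CCL18 held 2 reads over all cells, and its highest OE was 0.129. The bins from 34200001 to 34300000, into which CCL5 (RANTES) reaches, and of CCL3 and CCL4 (the macrophage inflammatory proteins) were empty of reads in all cells, which leaves them without an expected number or an upper limit. The bin of CCL3L3 and CCL4L2, duplicated copies of CCL3 and CCL4, had no value and was not analysed here. The bin just left of the interval, which also holds part of CCL5, ranged from 0 to 0.460. Over the whole chromosome 17 region 55 of 59 measured member bins (93.2%) were contacted in no cell, against 38.7% of all measured bins. Of these 14 held no read, as did 19.3% of all bins without contact. Chromosome 17 itself stood at 9.54% ± 3.56.

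The chemokine receptor cluster was contacted in 0.280% ± 2.00 (SD, n = 51) of its 7 bins. The 1 contact was in cell 21, at an OE of 1.23, in the bin shared by CCR3 (the eotaxin receptor) and CCR2 (the receptor of CCL2), which ranged from 0 upward with a median of 0. The bin of CCR9, a gut homing receptor, and CXCR6 had a highest OE of 0.177. That of CCR1 and CCR3 reached 0.224, and that of XCR1, the receptor of the lymphotactins, reached 0.709. The flanks were contacted in 0% of cases in all 51 cells. Over the genome 26.5% of windows of 7 bins had a share as low as that of the cluster or lower. A stretch without contact in any cell ran from 42500001 to 46300000 (3.8 Mb). Chromosome 3 as a whole stood at 37.2% ± 4.81, and 9 of the 47 member bins there held no read in any cell. These 9 were 19.6% of the member bins there without contact, near the 19.3% of all bins without contact.

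Interferon and chemokine genes outside the clusters were examined in a list of 44 genes in 31 intervals of 100 to 300 kb, with hg19 positions set by hand. Contact was absent from all cells in 21 intervals, and 30 of the 41 bins (73.2%) were contacted in no cell, against 38.7% of all measured bins. Contact in at least 20% of cells was present in 2 intervals. CCL20, a ligand of CCR6, lay in a bin with OE values from 0 to 3.57 and a median of 1.24, contacted in 31 cells. IFNG, the gene of interferon gamma, lay in a bin from 0 to 3.97 with a median of 0.841, contacted in 23 cells. Around CCL20 53.1% of bins within 2 Mb were contacted, and around IFNG 26.0%. Little or no contact was also present in contacted surroundings. The share was 67.9% around CCL28, contacted in 1 cell. It was 33.3% around CXCR4 and 31.3% around IFNK, both contacted in 0 cells.

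**Figure D5:**
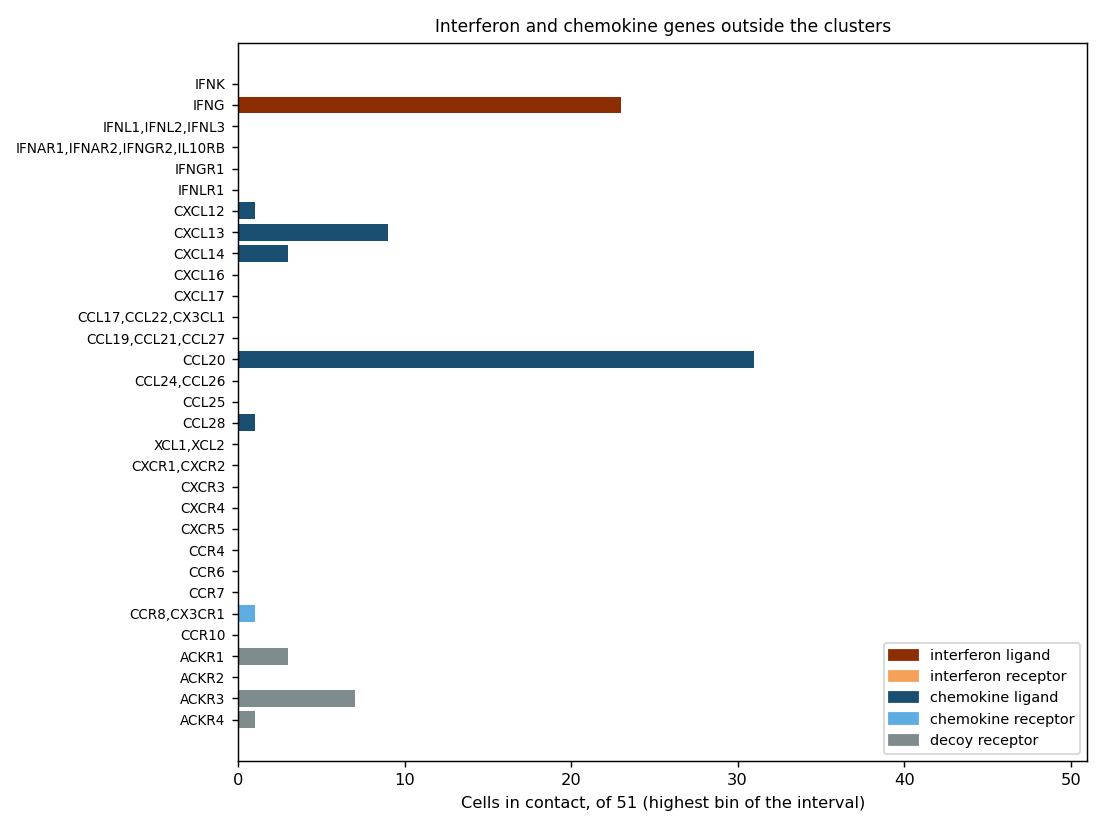
Cells in contact, of 51, in the most contacted bin of each of 31 intervals with interferon and chemokine genes outside the clusters, coloured by role. The bars of CCL20 (31 cells) and IFNG (23) exceed those of all other intervals, and 21 intervals have no bar.

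Most receptors on this list were without contact, as were 7 of 12 intervals of chemokine ligands and 2 of 3 of interferon ligands. Over the genome 38.7% of measured bins and 33.5% of windows of 2 bins were without contact. All 3 intervals of interferon receptors, with IFNAR1, IFNAR2, IFNGR1, IFNGR2, IFNLR1 and IL10RB, were contacted in no cell. Of the 9 intervals of chemokine receptors 8 were contacted in no cell, among them those of CXCR4, CXCR3, CCR7 and CXCR1 with CXCR2, and that of CCR8 with CX3CR1 was contacted in 1. The decoy receptors, which bind chemokines without the usual signal, differed more, with ACKR3 in 7 cells, ACKR1 in 3, ACKR4 in 1 and ACKR2 in none. Among the ligands the interval of CXCL13 was contacted in 9 cells and that of CXCL14 in 3. CXCL12, the ligand of CXCR4, was contacted in 1 cell, while IFNK and the interferon lambda genes IFNL1, IFNL2 and IFNL3 were contacted in none. Every bin of the interferon lambda genes, CXCR1 with CXCR2, CXCR3, CCR7 and ACKR2 was without reads in all 51 cells. So was 1 of the 2 bins of IFNLR1, and 1 of the 2 bins of CCL17, CCL22 and CX3CL1.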

How the data were processed

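Per the labels, 52 single cells of clone 14 were profiled, and 51 have a column. Cell 47 was not analysed here. The authors deposited ratios of observed to expected signal in 30376 bins of 100 kb. Cutadapt, Bowtie2 2.1.0 and hg19 are named in the submitters' processing notes. How the expected value was made and how duplicates were treated is not given in the sources used here. Bins without a value (3792) were left out. Each ratio above 0 was turned into whole reads, since it equals a whole number times a factor of the cell over a whole number of the bin (the expected number). This held for 100% of values within 0.02 reads and was tested on simulated data, as were planted contact shares. Python 3.11.15, numpy 2.4.6, pandas 2.3.3, scipy 1.17.1 and matplotlib 3.10.9 were used. Wilson intervals (95%) and the limit of 3 counts treat cells as independent and cover counting error only, since PCR reads carry no molecular identifiers. Named genes are those inside the intervals, their nearest neighbours and the list of other genes, except an item that is not reported here. The members, lists and stretches were chosen with earlier results of these data known. No test between groups was possible with 1 group.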

Additional observations from a re-analysis of the deposited data

How the results depend on the processing

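Of 160 values under the alternatives, 153 stayed within 1 SD over cells or, for counts, within 1.5 times. The SD over cells is wide, which makes this count a weak measure of stability. The interferon cluster had 4.71% with an SD of 11.7, so that even 14.0% stayed within it. Signs changed only for differences smaller than their SD. Those without the 5 cells of highest background, or without bins under an expected number of 100, were chosen after the data were seen. With flanks of 1 Mb the interferon cluster differed from its flanks by -17.5 points, since the far domain then falls outside. With an OE of at least 0.5 the first CC cluster stood at 1.96%, the second differed from its flanks by -0.583 points, and the member bins with contact in 80% of cells or more numbered 21, against 11 at an OE of 1. With an OE of at least 2 that count was 5 and the small CXC cluster differed by -11.5 points; both follow from the threshold. Thinned to 50978 reads, the first CC cluster stood at 0.980%, and the cause was not tested. The interferon cluster ranged from 2.35% to 14.0%, and its difference from -39.5 to -17.5 points. The large CXC cluster ranged from 11.4% to 46.3%, and its difference from -11.1 to 6.91 points, positive under 5 settings and negative under the others. The first CC cluster minus its flanks, -0.280 points, was 0.196 after thinning. Member bins contacted in no cell numbered 100 to 153, against 132. No paired analysis was possible because all cells form 1 group. Depth limits single bins most in cell 9, where an OE of 1 is 2.12 reads.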
